A study of Bos grunniens and Bos grunniens x Bos taurus with 2 samples.

Results

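The cytotoxic lymphocyte genes described here are 7 features of the yak gene annotation, NKG7, CST7, GZMM, KLRK1, EOMES, IL2RB and CD96, chosen by their symbols out of 26961 features. Each symbol belonged to 1 feature, and all 7 had counts in both libraries. Their counts were followed through the lymphocytes and the other cells of 2 droplet single-cell RNA libraries of testis, 1 from a sexually mature yak and 1 from a sexually mature cattle-yak, the hybrid of cattle and yak. The tissue had been frozen, thawed and digested to single cells with collagenase IV, hyaluronidase and trypsin. No treatment, transgene or other allele is given for either animal, and the reads of the hybrid were counted on the yak annotation, so an effect of cattle alleles on its counts cannot be told apart from expression. With 1 library per group no test was possible, and a difference between the libraries has no replicate check. The intervals given are 95% intervals and cover counting error only.

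Cytotoxic lymphocytes, which include natural killer (NK) cells, many CD8 T cells and many gamma delta T cells, kill infected or altered cells by releasing granules that hold perforin and granzymes. Surface receptors decide whether a target cell is attacked, IL-2 and IL-15 keep the killer cells alive and dividing, and T-box transcription factors set up the killer program. In the testis, lymphocytes lie mainly in the interstitium, outside the seminiferous tubules, where resident macrophages and other cells restrain immune attack on germ cells.

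The yak library held 11991 barcodes with 60816600 unique molecular identifiers (UMIs, each counting 1 captured RNA molecule), and the cattle-yak library held 8930 barcodes with 43774841 UMIs. Limits on genes, UMIs and mitochondrial share left 10324 and 7092 cells. Clusters made without the 7 genes placed 3695 yak cells (35.8%) and 1245 cattle-yak cells (17.6%) in a T/NK-like class, named by the T cell receptor genes CD3D and CD3G and other T cell markers. These cells were shallower than the rest, with medians of 1940 and 2381 UMIs per cell against 3566 and 3181. The labels call the material germ cells, whereas the germ-like class held 1458 yak and 109 cattle-yak cells. The libraries shared 24 barcodes, and cells were kept apart by library.

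Of the 18216 UMIs of the 7 genes in kept yak cells, 15758 (86.5%) lay in T/NK-like cells, and of 4940 in the cattle-yak 4476 (90.6%) did. All 7 genes had their highest level among the classes of both libraries in T/NK-like cells. Levels are CPM, the counts of a gene per 1000000 UMIs of the summed cells of a class.

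The granule genes come first. NKG7 encodes a membrane protein of cytotoxic granules that is needed for their release. It stood at 505 CPM in yak T/NK-like cells (4085 counts) and 21.3 CPM in the other kept cells, 23.8-fold apart (21.8 to 25.9). In the cattle-yak the levels were 316 and 4.86 CPM, 65.0-fold apart (53.5 to 79.8). CST7, or cystatin F, restrains the cathepsins that activate granzymes. Its levels were 581 against 20.8 CPM in the yak, 27.9-fold (25.6 to 30.5), and 362 against 3.90 CPM in the cattle-yak, 92.8-fold (74.8 to 116). GZMM encodes granzyme M, a serine protease of the granules. It reached 116 CPM against 4.01 CPM in the yak, 28.9-fold (23.8 to 35.5), and 61.5 against 0.789 CPM in the cattle-yak, 78.0-fold (48.2 to 134).

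The receptors follow. KLRK1 encodes NKG2D, an activating receptor for stress-induced ligands, and belongs to a family of related lectin-like receptor genes between which reads could be split. It had 352 counts in yak T/NK-like cells, a level of 43.6 CPM against 1.63 CPM elsewhere, 26.7-fold (19.6 to 37.1). In the cattle-yak it had 143 counts, a level of 41.5 CPM against 0.307 CPM, 135-fold with a wide interval (64.0 to 343). CD96 encodes a receptor that competes with the activating receptor CD226 for the nectin-like ligand PVR. Its levels were 260 against 10.6 CPM in the yak, 24.6-fold (21.8 to 27.9), and 202 against 1.84 CPM in the cattle-yak, 110-fold (80.4 to 154).

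IL2RB encodes the beta chain that the IL-2 and IL-15 receptors share. Its levels were 372 against 25.4 CPM in the yak and 279 against 8.28 CPM in the cattle-yak. These were the smallest ratios of the 7 genes in both libraries, 14.6-fold (13.5 to 15.9) and 33.6-fold (28.8 to 39.5). EOMES encodes a T-box transcription factor of killer cells. It stood at 70.9 against 3.48 CPM in the yak, 20.4-fold (16.4 to 25.5), and at 37.2 against 0.351 CPM in the cattle-yak, 106-fold (52.2 to 251).

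On a scale that adds 1 CPM to both sides, which allows genes near 0 to be compared with the rest, the log2 ratios of the 7 genes ran from 3.82 to 4.74 in the yak and from 4.82 to 6.21 in the cattle-yak. All 7 passed 2-fold in both libraries, whereas 7.52% of 12795 yak genes and 7.36% of 11157 cattle-yak genes with at least 50 counts did so. The median of the 7 was 4.50 in the yak and 5.13 in the cattle-yak, against medians of -0.55 and -0.42 over all those genes. By size of ratio they ranked between 11 (CST7) and 100 (IL2RB) in the yak and between 5 (CST7) and 55 (EOMES) in the cattle-yak. Outside T/NK-like cells, GZMM, KLRK1, EOMES and CD96 had 18, 7, 8 and 42 counts in the cattle-yak, and KLRK1 had 46 in the yak. Those genes reached 50 counts only through the class where they are high. The 7 genes were also chosen with earlier results of these data known, so the comparison with all genes is a description and no test.

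**Figure D1:**
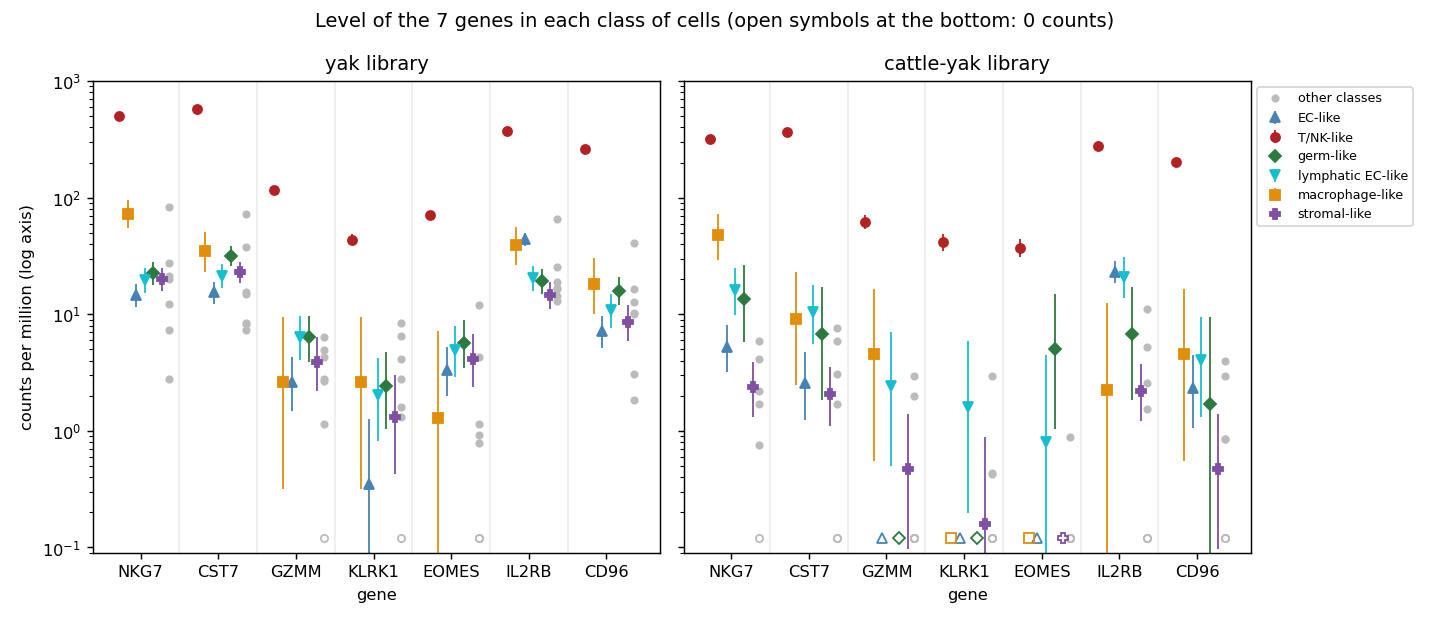
Level of each gene in CPM (log axis) in the classes of at least 50 cells of the yak (left) and cattle-yak (right) library, with 95% Poisson intervals for the 6 coloured classes, other classes as grey points, and open symbols at the bottom for 0 counts. T/NK-like cells (red) lay above every other class for all 7 genes, for example at 505 CPM for NKG7 in the yak and 316 CPM in the cattle-yak.

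Single cells were compared at 1 depth. After each cell was thinned to 1000 UMIs, which left out 202 yak and 44 cattle-yak T/NK-like cells below that depth, 76.9% of 3493 yak T/NK-like cells showed at least 1 of the 7 genes (75.4 to 78.3%) and 62.6% of 1201 cattle-yak cells did (59.8 to 65.4%). Without thinning the shares were 88.3% and 78.3%. Endothelial cell (EC)-like cells, which are no lymphocytes and serve here for comparison, showed at least 1 gene in 6.92% of 1012 thinned yak cells and 3.03% of 725 thinned cattle-yak cells, from class medians of 3881.5 and 4329.5 UMIs. IL2RB was seen in 35 of these 1012 yak cells (3.46%) and 17 of the 725 cattle-yak cells (2.34%), so it made up much of both shares. Counting 3 or more of the 7 genes parted the classes further, with 20.9% of yak T/NK-like cells and 0 of 1012 EC-like cells, where 3 cells would be 0.296% and the interval reached 0.364%. The single-gene shares in thinned yak T/NK-like cells were 36.3% for NKG7, 43.1% for CST7, 27.6% for IL2RB, 23.6% for CD96, 10.3% for GZMM, 5.53% for EOMES and 4.29% for KLRK1. In the cattle-yak they were 25.1%, 32.1%, 21.1%, 18.2%, 6.24%, 4.00% and 4.58% in the same order. A cell without a UMI of a rare gene such as KLRK1 or EOMES is therefore no sign that the cell lacked it.

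Outside the lymphocytes, the 7 genes lay at a low level in nearly every class of the yak library. Relative to its own T/NK-like level, each of the 7 genes and of 4 lymphocyte genes used as a yardstick (CD3D, CD3G, the delta chain constant gene TRDC and the chemokine gene CCL5) stood between 4.47 and 8.07% in yak germ-like cells and between 2.59 and 5.88% in stromal-like cells. The source of these like shares was not tested. In cattle-yak stromal-like cells the 11 genes stood between 0 and 0.797%. An unnamed yak cluster of 420 cells, with a median of 1122.5 UMIs and no enriched class markers, carried 10 of the 11 genes at 10.9 to 17.5% and GZMM at 3.74%, with NKG7 at 82.4 CPM and IL2RB at 65.0 CPM. Among the yak cells that the study typed as germ cells, no gene of the 7 exceeded 62.6 CPM, the level of NKG7 in spermatids on 17 counts (36.5 to 100 CPM), and GZMM, KLRK1 and EOMES had 0 counts in early spermatocytes, where 3 counts would be 10.5 CPM. CST7 reached 61.4 CPM in spermatogonia on 38 counts (43.5 to 84.3), and EOMES 18.4 CPM in spermatids on 5 counts (5.98 to 43.0). Their T/NK-like levels were 581 and 70.9 CPM. The even share above describes the germ-like class and was not computed for each type.

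The shares were less even in some other classes, such as cattle-yak germ-like cells, where they ran from 0 to 13.6%, the value of EOMES on 3 counts. IL2RB stood above the 10 other genes in EC-like cells of both libraries. In yak EC-like cells it had 251 counts, a level of 43.9 CPM, which was 11.8% of its T/NK-like level (10.3 to 13.4%), whereas the 10 other genes stood between 0.804 and 4.69%. In cattle-yak EC-like cells it had 89 counts, a level of 23.1 CPM and 8.28% of its T/NK-like level (6.59 to 10.3%), whereas the others stood between 0 and 1.64%. GZMM, KLRK1, EOMES and CD3G had 0 counts in those cattle-yak cells, where 3 counts would be 0.778 CPM. IL2RB was also the member with the largest relative level in the unnamed clusters 12 (yak, 6.83%) and 17 (cattle-yak, 3.97%), which carried endothelial together with pericyte genes. In lymphatic EC-like cells it stood at 5.47% in the yak and 7.54% in the cattle-yak, inside the range of the other genes (3.19 to 6.98% and 2.00 to 8.01%).

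The EC-like cells that carried IL2RB were counted for other lymphocyte RNA. In the cattle-yak, 77 of 764 EC-like cells (10.1%) had an IL2RB UMI, and 7 of these 77 (9.09%, 3.73 to 17.8%) also had a UMI of another of the 11 genes, against 6.70% (4.94 to 8.83%) of the EC-like cells without IL2RB. In the yak, 182 of 1132 EC-like cells (16.1%) had an IL2RB UMI and 37.4% of them (30.3 to 44.8%) had another of the genes, against 22.8% of the rest. The cells with IL2RB were deeper in both libraries, with medians of 7744 against 3441.5 UMIs in the yak and 7755 against 4051 in the cattle-yak. In T/NK-like cells with IL2RB the share with another of the genes was 98.4% and 97.6%. With all EC-like cells that held another of the genes left out, the level of IL2RB was 9.17% of its T/NK-like level in the yak and 8.40% in the cattle-yak. Both cattle-yak EC-like clusters held IL2RB, at 25.8 and 13.8 CPM.

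NKG7 had the largest relative level of the 11 genes in macrophage-like cells of both libraries, where the numbers were smaller and its interval overlapped those of other genes. It had 56 counts in 211 yak cells, a level of 72.8 CPM and 14.4% of its T/NK-like level (10.9 to 18.7%). The other 10 genes reached at most 10.5%, the value of IL2RB (7.06 to 15.0%), followed by TRDC at 9.85% (7.69 to 12.4%). In 101 cattle-yak cells NKG7 had 21 counts, a level of 47.4 CPM and 15.0% (9.24 to 23.0%), with CCL5 next at 9.21% (7.28 to 11.5%) and IL2RB at 0.811%. Of the 40 yak macrophage-like cells with an NKG7 UMI, 17 (42.5%, 27.0 to 59.1%) held another of the 11 genes, against 25.1% (18.8 to 32.3%) of the rest. In the cattle-yak 4 of 16 (25.0%, 7.27 to 52.4%) did, against 24.7%. With the macrophage-like cells that held another of the 11 genes left out, NKG7 stood at 9.63% in the yak (6.28 to 14.1%) and 13.9% in the cattle-yak (7.56 to 23.4%). EOMES and KLRK1 had 0 counts in cattle-yak macrophage-like cells, where their intervals reached 22.8 and 20.3%. Doublets were not removed, and their part in these values was not tested beyond these counts and the Scrublet alternative given with the processing.

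**Figure D2:**
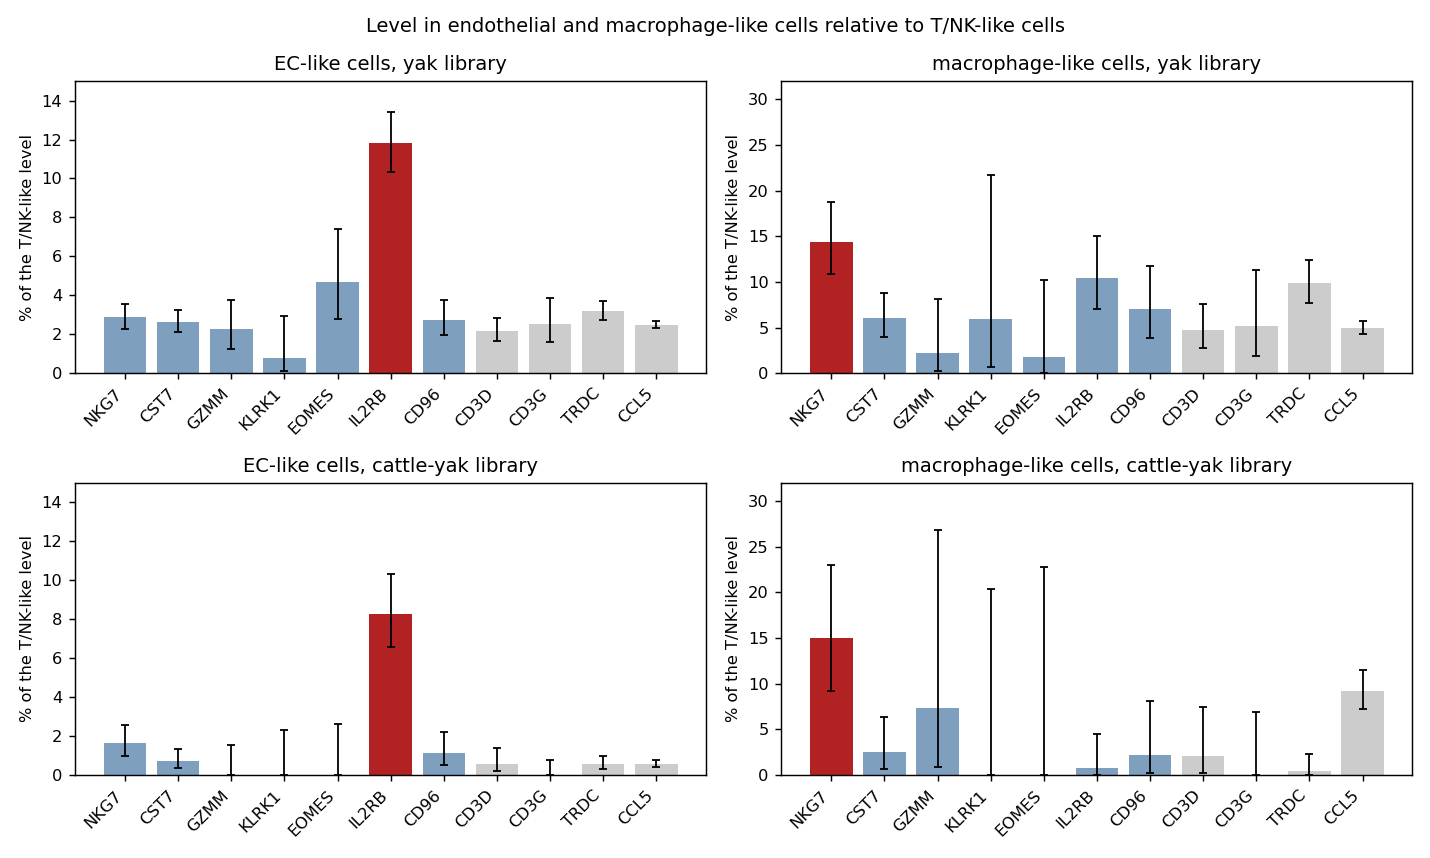
Level of the 7 genes (blue, or red for the gene described) and of 4 yardstick lymphocyte genes (grey) in EC-like cells (left) and macrophage-like cells (right), in percent of the same gene's level in T/NK-like cells, with 95% counting intervals, yak above and cattle-yak below. IL2RB reached 11.8% and 8.28% in EC-like cells, and NKG7 14.4% and 15.0% in macrophage-like cells.

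The T/NK-like cells fell into 4 clusters in either library, and the 7 genes differed among them. The largest yak cluster held 2257 cells (61.1%) with TRDC at 1260 CPM and CRTAM among its leading genes, and is called the TRDC cluster. A cluster of 965 cells (26.1%) was led by GPR183, CD28 and IL7R, with IL7R at 1107 CPM against 173 CPM in the other T/NK-like cells, and is called the IL7R cluster. A cluster of 392 cells carried TRDC at 1612 CPM and was led by the small nuclear and nucleolar RNA genes U2, U4 and U3, and 81 cells had TOP2A, a gene of dividing cells, among their leading genes. In the cattle-yak the TRDC cluster held 501 cells (40.2%), the IL7R cluster, led by IL7R, JAG1 and GPR183, 392 (31.5%), the TOP2A cluster 135 (10.8%), and a cluster led by SH2D1A 217 (17.4%), with TRDC at 24.0 CPM. CD3E, CD8A and CD8B are not among the symbols of the annotation, so CD8 T cells were not analyzed here.

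NKG7, GZMM, IL2RB and CD96 were higher in the TRDC clusters than in the IL7R clusters. NKG7 stood at 670 CPM in the yak TRDC cluster and 144 CPM in the IL7R cluster, a log2 ratio of 2.21 (2.05 to 2.38), and at 737 and 71.9 CPM in the cattle-yak, 3.36 (3.02 to 3.71). IL2RB stood at 484 against 105 CPM in the yak, 2.20 (2.01 to 2.40), and at 719 against 59.9 CPM in the cattle-yak, 3.59 (3.22 to 3.97). The TRDC cluster was not the yak peak of every gene. The small nuclear RNA cluster, which also had more TRDC, stood at 689 CPM for IL2RB (630 to 752), above the 464 to 505 CPM interval of the TRDC cluster, and at 741 CPM for NKG7, 734 CPM for CST7 and 387 CPM for CD96, with intervals that overlapped those of the TRDC cluster. Between the TRDC and IL7R clusters CD96 gave 2.25 (2.02 to 2.49) and 2.76 (2.38 to 3.15), and GZMM 2.08 (1.75 to 2.42) and 2.17 (1.46 to 2.95).

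CST7, KLRK1 and EOMES were spread more evenly. CST7 remained at 403 CPM in the yak IL7R cluster against 675 CPM, a log2 ratio of 0.75 (0.64 to 0.85), and at 219 against 654 CPM in the cattle-yak, 1.58 (1.36 to 1.80). KLRK1 gave 0.77 (0.38 to 1.18) in the yak, and in the cattle-yak its levels of 38.7 and 37.8 CPM gave 0.04 (-0.62 to 0.69). EOMES was higher in the yak TRDC cluster, 86.6 against 35.1 CPM and 1.30 (0.95 to 1.67), but stood at 21.2 against 27.6 CPM in the cattle-yak, -0.38 (-1.23 to 0.45). With 1 CPM added to both sides, 5 of the 7 genes were at least 2-fold higher in the TRDC cluster in either library, NKG7, GZMM, IL2RB and CD96 in both, EOMES in the yak and CST7 in the cattle-yak, where 4.31% of 6609 yak genes and 5.88% of 3433 cattle-yak genes were.

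The SH2D1A cluster of the cattle-yak had its own balance of the genes. It held the highest levels of GZMM (151 CPM, 120 to 188), KLRK1 (73.9 CPM, 52.8 to 101) and EOMES (103 CPM, 78.1 to 134) among the cattle-yak clusters, against 82.9, 38.7 and 21.2 CPM in the TRDC cluster. IL2RB was at 94.2 CPM there against 719 CPM in the TRDC cluster, and NKG7 at 229 against 737 CPM. CD96 (227 CPM) and CST7 (369 CPM) lay between the TRDC and IL7R clusters. In the yak no cluster combined high EOMES with low TRDC, and EOMES was at 86.6, 74.6 and 87.4 CPM in the TRDC, small nuclear RNA and TOP2A clusters, whose intervals overlapped.

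**Figure D3:**
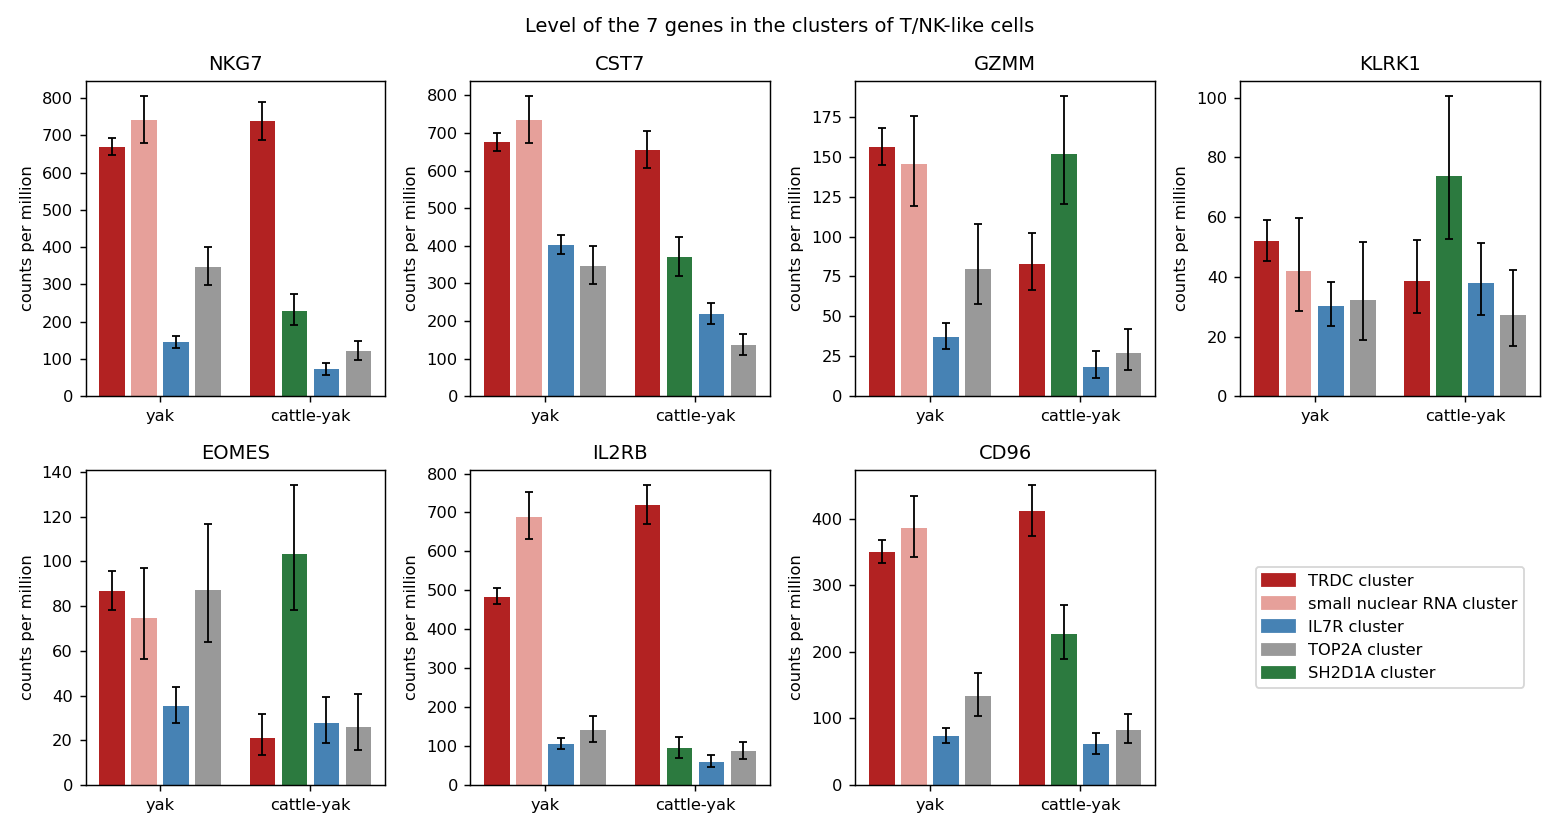
Level of each gene in CPM in the 4 T/NK-like clusters of the yak (left group of bars) and of the cattle-yak (right group), with 95% Poisson intervals. The IL7R clusters (blue) lay below the TRDC clusters (red) for NKG7, IL2RB and CD96, and the SH2D1A cluster (green) was the highest cattle-yak bar for GZMM, KLRK1 and EOMES.

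The number of genes per cell followed the clusters. At 1000 UMIs, 87.2% of yak TRDC-cluster cells and 88.2% of cattle-yak TRDC-cluster cells showed at least 1 of the 7 genes, and 27.0% and 27.1% showed 3 or more. The yak small nuclear RNA cluster had 88.7% with at least 1 gene and 35.1% (30.2 to 40.2%) with 3 or more. In the IL7R clusters the shares with at least 1 gene were 50.6% and 38.2%, and those with 3 or more were 2.67% and 1.04%. The SH2D1A cluster lay between, with 69.9% and 8.33%. The TOP2A clusters differed between libraries, with 57.0% (45.3 to 68.1%) of 79 yak cells and 31.1% (23.3 to 39.7%) of 132 cattle-yak cells. No thinned T/NK-like cell showed all 7 genes.

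**Figure D4:**
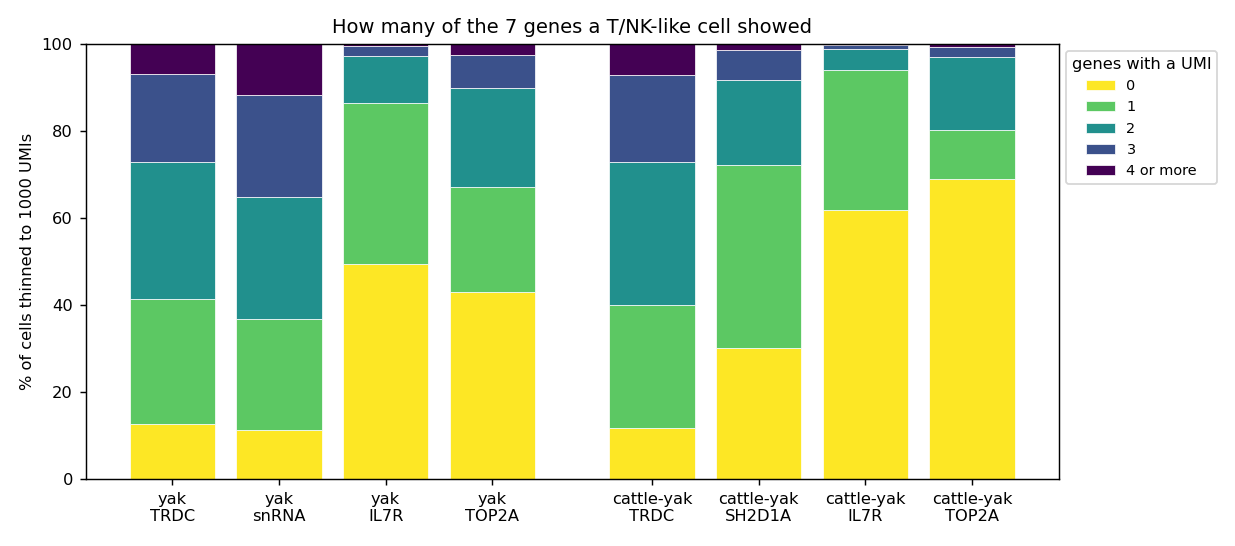
Share of cells of each T/NK-like cluster, in percent after thinning to 1000 UMIs, that showed 0, 1, 2, 3, or 4 or more of the 7 genes. The bars of the TRDC clusters nearly matched between the libraries (87.2 and 88.2% with at least 1 gene), whereas the IL7R and TOP2A clusters of the cattle-yak held fewer cells with a gene.

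Splitting thinned T/NK-like cells by a UMI of a T cell gene, without clusters, gave shares in the same directions for NKG7, CST7, IL2RB and CD96. NKG7 was seen in 49.7% of 1352 yak cells with TRDC and 27.8% of 2141 without, and in 45.1% of 304 and 18.4% of 897 cattle-yak cells. IL2RB was seen in 40.8 and 19.2% in the yak and in 39.1 and 15.1% in the cattle-yak. For CST7 the yak shares were 49.3% (46.6 to 52.0%) with TRDC and 39.2% (37.2 to 41.3%) without. The cattle-yak shares of CST7 were 40.1% (34.6 to 45.9%) and 29.3% (26.4 to 32.4%). GZMM differed less, with 12.2% (10.5 to 14.1%) and 9.11% (7.92 to 10.4%) in the yak. In the cattle-yak its shares were 7.24% (4.59 to 10.8%) and 5.91% (4.46 to 7.66%), with overlapping intervals. KLRK1 hardly differed, 4.14% (3.14 to 5.35%) with TRDC and 4.39% (3.56 to 5.35%) without in the yak. EOMES was seen in 6.43% with and 4.95% without TRDC in the yak (5.19 to 7.88% and 4.07 to 5.96%), and in 1.97% and 4.68% in the cattle-yak (0.728 to 4.25% and 3.40 to 6.28%), so both pairs of intervals overlapped. Cells with an IL7R UMI showed NKG7 in 21.7% against 41.0% without it in the yak and 8.87% against 30.1% in the cattle-yak. CST7 was seen in 36.1 against 45.4% and 22.0 against 35.1%. Cells with a CD4 UMI numbered 43 and 7, and NKG7 was seen in 3 of the 43 and CST7 in 15.

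Pairs of genes in single cells were compared with the product of their shares. Over all 3493 thinned yak T/NK-like cells, 11 of 21 pairs of genes were seen together more often than the product of their shares and 2 less often, judged by whether the interval held the product, and within the 2115 cells of the TRDC cluster these numbers were 2 and 2. In the cattle-yak they were 7 and 0 over 1201 cells, and 0 and 0 within the 468 cells of the TRDC cluster. Fewer cells give wider intervals, so the numbers of pairs cannot be compared between the clusters and all cells. The pairs above the product in the yak TRDC cluster were GZMM with EOMES (1.56% of cells, 1.08 to 2.18%, against 0.873%) and CST7 with EOMES (4.21%, 3.39 to 5.15%, against 3.20%). Those below were KLRK1 with IL2RB (0.898%, 0.542 to 1.40%, against 1.68%) and EOMES with IL2RB (1.51%, 1.04 to 2.13%, against 2.23%). EOMES and IL2RB were also seen together in fewer cattle-yak T/NK-like cells than the product, 0.333% (0.0908 to 0.851%) against 0.845%, an interval that just held it. The intervals of the 21 pairs are not adjusted for their number.

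Cattle-yak T/NK-like cells had lower levels of 6 of the 7 genes than yak T/NK-like cells, all by less than 2-fold. The log2 ratios of cattle-yak to yak were -0.68 (-0.77 to -0.58) for NKG7, -0.68 (-0.77 to -0.59) for CST7 and -0.92 (-1.14 to -0.70) for GZMM. For EOMES the ratio was -0.93 (-1.22 to -0.65), for IL2RB -0.42 (-0.52 to -0.31) and for CD96 -0.37 (-0.49 to -0.24). KLRK1, at 43.6 and 41.5 CPM, gave -0.07, with an interval from -0.36 to 0.22 that held 0. None of the 7 passed 2-fold. Of 6385 genes with at least 100 summed counts 10.6% did, 5.65% higher and 4.90% lower in the cattle-yak. At so low a share, 0 of 7 does not set these genes apart from the rest. The median ratio of all those genes was -0.21, so a ratio below 0 does not by itself set a gene apart. Relative to that median KLRK1 stood at 0.14, CD96 at -0.15 and IL2RB at -0.20, and NKG7, CST7, GZMM and EOMES from -0.46 to -0.70. The median mitochondrial share of T/NK-like cells was 21.4% in the cattle-yak and 15.2% in the yak. Its part in the ratios was not tested, apart from the alternative CPM in the closing section. These values compare 2 libraries, in which animal, cross, handling and sequencing cannot be told apart.

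The lymphocyte clusters that make up the class differed in share between the libraries (61.1% against 40.2% for the TRDC cluster), so the libraries were also compared cluster by cluster. The pairing by TRDC, IL7R and TOP2A was chosen after the values had been seen. The yak cluster richest in TRDC, the small nuclear RNA cluster (1612 CPM, 10.6% of T/NK-like cells), was left unpaired. Its IL2RB interval (630 to 752 CPM) overlapped that of the cattle-yak TRDC cluster (669 to 771 CPM). The IL2RB ratio between the TRDC clusters therefore depends on the yak cluster chosen. In the small nuclear RNA cluster EOMES and GZMM, at 74.6 and 145 CPM, lay above the cattle-yak levels of 21.2 and 82.9 CPM. Paired clusters differed in other lymphocyte genes. TRDC stood at 131 CPM in the yak IL7R cluster and 384 CPM in the cattle-yak one, and at 746 and 157 CPM in the TOP2A clusters. In the TRDC clusters TRDC stood at 1260 CPM in both libraries, but IL7R at 181 and 53.5 CPM. The part of such differences in the ratios was not tested. Between the TRDC clusters, NKG7 gave a log2 ratio of 0.14 (0.02 to 0.25), CST7 -0.04 (-0.16 to 0.07), CD96 0.23 (0.08 to 0.39) and IL2RB 0.57 (0.45 to 0.69). EOMES stood at -2.03 (-2.71 to -1.42), with 86.6 CPM in the yak and 21.2 CPM in the cattle-yak, and GZMM stood at -0.91 (-1.24 to -0.59). EOMES was the 1 gene of the 7 past 2-fold there, where 5.71% of 4342 genes were lower and 0.921% higher in the cattle-yak. The median ratio of those genes was -0.25. KLRK1 gave -0.42 (-0.93 to 0.06). In the cattle-yak, EOMES and GZMM were highest in the separate SH2D1A cluster (103 and 151 CPM), and no yak cluster combined high EOMES with low TRDC. Whether yak cells of that kind lay in the yak TRDC cluster was not tested.

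Between the IL7R clusters, 6 of the 7 ratios were below 0, with NKG7 at -1.01 (-1.38 to -0.65), CST7 at -0.88 (-1.09 to -0.67) and IL2RB at -0.82 (-1.23 to -0.42), and KLRK1 was at 0.32 (-0.28 to 0.89). None passed 2-fold with 1 CPM added, against 6.53% of 2957 genes lower and 2.87% higher. Over those genes the median ratio was -0.35, so a ratio below 0 does not by itself set a gene apart. EOMES (-0.35) and CD96 (-0.27) lay near that median, with intervals that held 0. Between the TOP2A clusters all 7 ratios were below 0, and NKG7 (-1.53), CST7 (-1.36), GZMM (-1.55) and EOMES (-1.75) were past 2-fold, against 7.85% of 1579 genes lower and 8.74% higher. The median ratio of those genes was -0.25, and KLRK1 lay near it at -0.24 (-1.25 to 0.78). These clusters held 81 yak and 135 cattle-yak cells. In them GZMM had 42 and 20 counts, EOMES 46 and 19, and KLRK1 17 and 20, so their ratios are less certain than those of genes with more counts.

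**Figure D5:**
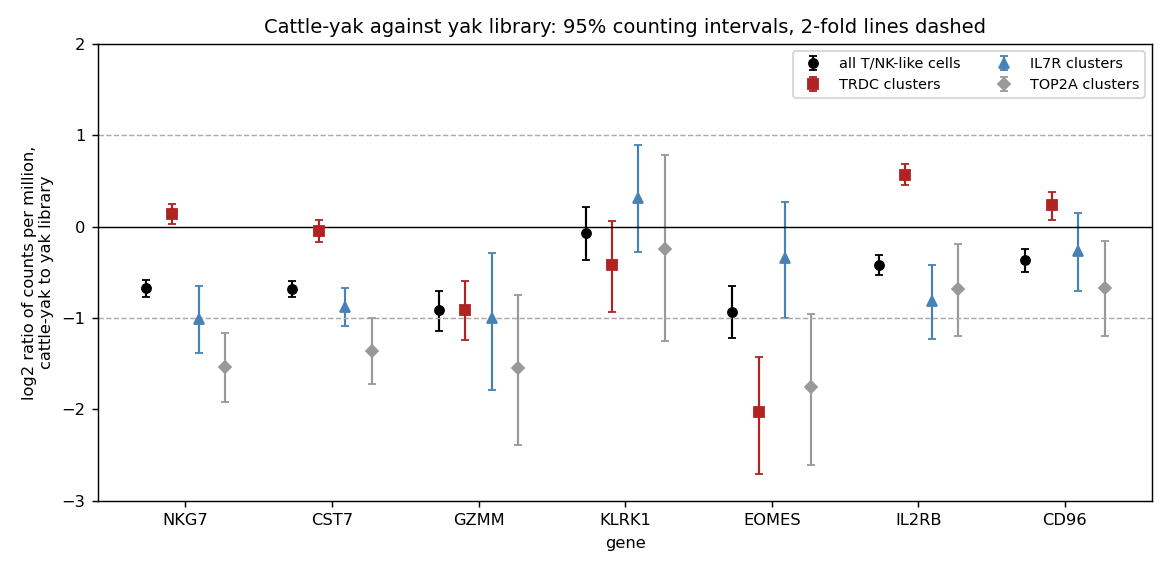
Log2 ratio of the level in the cattle-yak library to that in the yak library for each gene, over all T/NK-like cells (black) and within the TRDC (red), IL7R (blue) and TOP2A (grey) clusters, with 95% counting intervals and dashed lines at 2-fold. The lower NKG7 and CST7 of the whole class (-0.68 for both) was not seen between the TRDC clusters (0.14 and -0.04), whereas EOMES was lowest there (-2.03).

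A wider list of 83 genes of cytotoxic function, of which 51 had a symbol in the annotation, set the 7 genes in their pathways. Of those, 45 had at least 50 counts in the yak and 40 in the cattle-yak, and 29 and 25 were at least 2-fold higher in T/NK-like cells, while 4 and 3 were at least 2-fold lower. Over all tested genes 7.52% in the yak and 7.36% in the cattle-yak were that much higher, and 34.5% and 27.0% that much lower, which are the shares to set beside the counts of each group that follows. The list's median log2 ratio was 2.39 in the yak and 2.85 in the cattle-yak. The list was chosen with earlier results of these data known. Many of its genes reached 50 counts only through T/NK-like cells, such as GZMA in the yak (78 counts there, 1 elsewhere) and PRF1 in the cattle-yak (59 and 3). This held for most of the cattle-yak genes called higher, such as KLRG1 (5 counts elsewhere) and HCST (13). It also held for most of those in the granule, killer receptor and adaptor groups. The counts of the list and of its groups are therefore a description and no test, also where a share of all tested genes stands beside them.

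Among granule and effector proteins, 7 of 9 in the yak and 6 of 8 in the cattle-yak were higher in T/NK-like cells, where 7.52% and 7.36% of all tested genes were. CCL5 stood at 5180 CPM in the yak and 1937 CPM in the cattle-yak. Of the killing proteins, PRF1 (perforin) was at 16.0 CPM in the yak and 17.1 CPM in the cattle-yak, GZMA at 9.65 and 2.32 CPM, and GZMK at 165 and 29.0 CPM. Over all T/NK-like cells GZMK, at a log2 ratio of -2.46 between the libraries, was further apart than any of the 7 genes. CTSC, the cathepsin that activates granzymes and that CST7 restrains, was at 43.2 CPM in yak T/NK-like cells and 43.6 CPM elsewhere, a log2 ratio of -0.01 and the smallest of the group in both libraries. GZMB has no symbol in the annotation.

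Among killer and activating receptors, 5 of 6 in the yak and 6 of 6 in the cattle-yak were higher, with CRTAM the largest ratio (125 CPM and 4.63 in the yak, 104.5 CPM and 5.59 in the cattle-yak) and KLRG1 the smallest (0.65 and 3.89). CD226, which shares the ligand PVR with CD96, stood at 48.3 and 29.6 CPM. TIGIT, the third receptor for PVR, had 2 counts in yak and 1 count in cattle-yak T/NK-like cells. NCR1, a receptor that marks NK cells, had 2 counts in yak T/NK-like cells and 0 in the cattle-yak, where 3 counts would be 0.871 CPM, while NCR3 stood at 276 and 146 CPM. Of the 3 annotated ligand genes, PVR and NECTIN2 were at least 2-fold lower in T/NK-like cells of both libraries. Over all tested genes 34.5% in the yak and 27.0% in the cattle-yak were. In yak T/NK-like cells PVR stood at 0.495 CPM on 4 counts against 8.59 CPM elsewhere, and NECTIN2 at 16.5 against 211 CPM. With 1 CPM added, NECTIN1 fell just short of 2-fold in the yak (-0.9999) and gave -0.58 in the cattle-yak. CTLA4, the checkpoint receptor of the list with enough counts in the yak, was at 43.9 CPM there and at 3.48 CPM in the cattle-yak.

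All tested receptor adaptors and kinases, 5 in the yak and 4 in the cattle-yak, were higher in T/NK-like cells, against 7.52% and 7.36% of all tested genes. LCK and ZAP70, which are in this group, are also among the markers that named the T/NK-like class, so the count is in part fixed by the naming. HCST, the DAP10 adaptor through which KLRK1 signals, had the largest ratio of that group, at 121 against 4.54 CPM (4.46) in the yak and 63.6 against 0.570 CPM (5.36) in the cattle-yak, and SYK the smallest in the yak (1.07). Of the IL-2 and IL-15 receptor group 2 of 6 in the yak and 1 of 5 in the cattle-yak were higher and 1 was lower in either library, with median log2 ratios of 0.67 and 0.17. JAK3, the kinase of the common gamma chain, was higher in both libraries, at 106 against 19.5 CPM in the yak and 72.6 against 10.9 CPM in the cattle-yak. IL2RA, the alpha chain of the IL-2 receptor, was at 8.04 CPM in yak T/NK-like cells against 0.284 CPM elsewhere, and at 8.42 CPM in the cattle-yak. IL15 was found outside the lymphocytes, at 11.1 CPM in other yak cells against 0.619 CPM in T/NK-like cells and 9.42 against 0.871 CPM in the cattle-yak. IL2RG and IL15RA have no symbol in the annotation.

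Of the transcription factors, 7 of 10 in the yak and 6 of 9 in the cattle-yak were higher, against 7.52% and 7.36% of all tested genes. RUNX3, which acts with T-box factors in killer cells, had the largest ratio, at 332 CPM (4.31) in the yak and 343 CPM (5.82) in the cattle-yak. TBX21, the T-box relative of EOMES, was at 14.1 CPM in yak T/NK-like cells against 0.781 CPM elsewhere, and at 9.87 CPM in the cattle-yak. NFIL3 had the smallest ratio in the yak (-0.52) and PRDM1 in the cattle-yak (-0.74). Of the genes of granule release 2 of 5 were higher in either library, with STX11 the largest ratio (1.73 and 2.80) and LAMP1 the smallest (-1.07 and -0.94).

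Over 39 clusters of at least 50 cells from both libraries, the genes whose log2 level was most like that of each of the 7 were listed. Those clusters came from only 2 libraries and differed in depth, and the part of background RNA in their likeness was not tested. Pearson's r over them is given as a description among 10482 genes. NKG7 was most like LCP2 (0.967), CCL5 (0.966) and PTPRC (0.951). CST7 was most like the unnamed gene ENSBGRG00000004074 (0.957), CD96 (0.953) and CD3D (0.953), and CD96 like ENSBGRG00000004074 (0.958), CST7 (0.953) and ENSBGRG00000017711 (0.952). GZMM was most like ENSBGRG00000017711 (0.953), HCST (0.945) and CD3D (0.945), and KLRK1 like CD3G (0.950), ENSBGRG00000007369 (0.949) and GIMAP1 (0.939). EOMES had ENSBGRG00000008096 (0.935), ENSBGRG00000017711 (0.934) and ENSBGRG00000007369 (0.933). IL2RB had the lowest top value of the 7, with CST7 (0.905), ENSBGRG00000006053 (0.903) and CD96 (0.887).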

How the data were processed

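The authors deposited, for each library, raw counts of UMIs per gene and barcode from Cell Ranger, without normalization. The matrix headers name version 5.0.0, the submitters' processing notes 2.1.1, and the methods another. The methods name the yak assembly BosGru3.0, and no mapping of the cattle-yak is described there. The members and gene lists were chosen with earlier results of these data known. Per library, cells were kept within 2 SD of the mean genes and UMIs and below 30% mitochondrial UMIs, then clustered with scanpy 1.11.5 and Leiden (igraph 0.11.9, resolution 1, 2000 variable genes without the 7 genes and the cytotoxic list, 30 components, 15 neighbours, seed 0). A class needed at least 3 markers at a log2 ratio of 1 in at least 10% of cells. Some T/NK-like markers also stand in the cytotoxic list (LCK, ZAP70). Counts were summed per class and scaled to CPM with exact Poisson intervals, shares had exact Clopper-Pearson intervals, and ratios exact conditional intervals. Germ cell types of yak barcodes were taken from the study's list of typed cells. Alternatives are given in the closing section. Named genes were the 7, their role partners, the largest and smallest ratio of each list group, 3 leading genes per lymphocyte cluster and the 3 most alike genes. Scrublet called 251 cattle-yak barcodes and 0 yak barcodes, where it has not worked, so no doublets were removed. Figures were drawn with matplotlib 3.10.9 under Python 3.11.15.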

Additional observations from a re-analysis of the deposited data

Results flagged for a closer look

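EOMES differed in direction between the libraries when the TRDC cluster was set against the IL7R cluster, with a log2 ratio of 1.30 in the yak (0.95 to 1.67) and -0.38 in the cattle-yak (-1.23 to 0.45). The interval of the second value held 0, each library is 1 sample, and the difference was not tested.

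The cells outside the limits, used only in the alternative without limits on cells, also held the 7 genes. In kept T/NK-like cells the 7 genes summed to 1950 CPM in the yak and 1299 CPM in the cattle-yak. Those are levels of the lymphocyte class alone. The cells outside the limits were not split by class, so the sums do not compare like cells. In 1667 such yak cells (median 5159 UMIs) the genes summed to 41.9 CPM (39.3 to 44.5), and in 1838 cattle-yak cells (median 4633.5 UMIs) to 37.9 CPM (35.0 to 40.9), where 3 counts would be 0.122 and 0.171 CPM.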

How the results depend on the processing

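No paired analysis was possible because each group is 1 library, and for the same reason no replicate could be left out. All 7 genes stayed at least 2-fold higher in T/NK-like cells in both libraries under every setting run (log2 ratios from 2.19 to 6.94 over 168 values), and none of the 7 passed 2-fold between the libraries. With T/NK-like cells taken by a gate of 2 marker UMIs in place of clusters, 3 of the 7 genes were highest in the gated yak cells, and the other 4 were highest in the 564 clustered T/NK-like cells below the gate.

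The share of thinned T/NK-like cells with at least 1 of the genes, 76.9% in the yak and 62.6% in the cattle-yak, moved with depth to 58.3% and 44.5% at 500 UMIs, 87.4% and 71.5% at 2000 UMIs, and 88.3% and 78.3% without thinning. It was 79.1% in the yak with a mitochondrial limit of 20% and 71.6% with the gate, and 66.1% in the cattle-yak without limits on cells and 66.4% at Leiden resolution 2.

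The log2 ratio of the 7 genes summed, cattle-yak to yak, was -0.59. It was -0.37 relative to the median of all tested genes, -0.34 without limits on cells, -0.68 with a mitochondrial limit of 20%, -0.37 at resolution 2, -0.23 with the gate, -0.46 without the cells that scored highest (10%) as doublets by Scrublet, -0.36 on CPM without mitochondrial genes and the 2 most abundant unnamed genes, and -0.43 with cells weighted equally. Added after seeing the data, it was -0.40 without the TOP2A clusters and -0.52 without the yak small nuclear RNA cluster. The cause was not tested. KLRK1 ran from -0.15 to 0.39 over these settings and so had no fixed direction, and IL2RB and CD96 came as close to 0 as -0.06 and -0.04.

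Also added after seeing the data, leaving out the highest Scrublet scores gave 10.6% and 7.31% for IL2RB in EC-like cells, in percent of its T/NK-like level, and 15.3% and 16.9% for NKG7 in macrophage-like cells. Scrublet called no doublets in the yak, so the first value of each pair rests on scores that may not mark doublets. Counts of genes, and the percentage of all genes past 2-fold, were judged by a fixed fold of the main value, and other values by the main interval. By these limits, 77 of the summaries stayed within and 21 moved beyond. Of the single-gene values, 162 stayed within and 100 moved beyond. No called value changed direction. KLRK1 and EOMES, with 143 and 128 counts in cattle-yak T/NK-like cells, are the members that depth limits most.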
